A study of Oryza sativa Indica Group with 2 samples.

Results

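On rice chromosome 10, 10 neighbouring genes, 9 of them described as extensin family proteins, were all more abundant in seedlings overexpressing OsGRF7 than in wild-type seedlings. These genes are the rows OS10G0148100 to OS10G0150800 of the deposited table that were chosen by their FPKM values, for being higher together in the overexpression library, 10 of 35677 genes in all. Because that difference selected them, it is given as a description and nothing is tested on it. Messenger RNA was sequenced from Indica-group rice at the tillering stage, when side shoots form. The tested material was the transgenic line labelled GRF7OE-1 (GRF7OE, 1 library), and it was set against the wild type (WT, 1 library), both grown in Wuhan in summer. The labels name 1 line, do not give the promoter that drives the transgene, and do not say how many plants were pooled.

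Proline-rich proteins and extensins are structural proteins of the plant cell wall. They are made with a signal peptide, exported, and can be cross-linked into the wall, where they are known for a part in wall strength and cell expansion. The Ole e I domain takes its name from an olive pollen allergen but also occurs in wall proteins of leaves, stems and roots. OsGRF7 belongs to the growth-regulating factors, a plant family of DNA-binding proteins known for control of leaf and shoot growth.

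About 17021467 reads were assigned to genes in GRF7OE and about 16824988 in WT. OsGRF7 (OS12G0484900) was at 70.7 FPKM in GRF7OE and 5.10 FPKM in WT, so the library labelled as overexpressing the gene was the one with more of its transcript. FPKM is the read number scaled to transcript length and library size, which allows levels of different genes to be set side by side. Folds are plain FPKM ratios of GRF7OE over WT, and brackets hold a 95% exact interval from the reads that covers counting error only. Each group has a single library, so the spread between plants is unknown and the conditions were not tested against each other. In whole seedlings, more cells of a type and more RNA per cell cannot be told apart.

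The most abundant gene of the cluster was OS10G0150400, described as a pollen Ole e I allergen and extensin family protein of 224 residues. It stood at 657 FPKM in GRF7OE and 144 FPKM in WT, from 8897 and 2029 reads. The ratio was 4.57-fold [4.35 to 4.79]. Its place among the 35677 genes by level was 126 in GRF7OE and 841 in WT. The neighbouring OS10G0150600, of the same family and 229 residues long, was at 308 FPKM in GRF7OE and 64.4 FPKM in WT, from 4449 and 954 reads. That was 4.78-fold higher [4.45 to 5.13]. OS10G0148100, whose best Swiss-Prot match is PRP4, a proline-rich cell wall protein of Arabidopsis, was at 231 FPKM in GRF7OE and 43.6 FPKM in WT, 5.30-fold higher [4.84 to 5.81]. These 3 genes held 83.5% of the summed FPKM of the cluster in GRF7OE and 84.5% in WT.

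A pair of further family members had intermediate levels. OS10G0150800 was at 105 FPKM in GRF7OE and 20.5 FPKM in WT, from 1393 and 283 reads, 5.11-fold higher [4.49 to 5.82]. OS10G0150300 was at 79.8 FPKM in GRF7OE and 15.9 FPKM in WT, from 765 and 159 reads, 5.02-fold higher [4.22 to 5.99]. The 5 genes with over 100 reads in WT thus lay in a narrow band, between 4.57-fold and 5.30-fold.

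The other 5 genes, all between OS10G0149000 and OS10G0149800, were scarce in WT, with under 50 reads each. OS10G0149800 was at 16.8 FPKM in GRF7OE and 2.22 FPKM in WT, from 159 and 22 reads, 7.58-fold higher [4.83 to 12.4]. OS10G0149000 was at 10.3 FPKM in GRF7OE and 1.95 FPKM in WT, from 71 and 14 reads, 5.26-fold higher [2.94 to 10.1]. OS10G0149400 was at 9.61 FPKM in GRF7OE and 2.38 FPKM in WT, from 62 and 16 reads, 4.03-fold higher [2.30 to 7.48]. Each of these intervals is wide, since few reads stand behind the WT value. OS10G0149200 was at 9.57 FPKM in GRF7OE and 2.65 FPKM in WT, from 129 and 37 reads, 3.61-fold higher [2.49 to 5.36], the smallest ratio of the 10. OS10G0149100 was at 6.55 FPKM in GRF7OE and 0.712 FPKM in WT, from 44 and 5 reads, 9.19-fold higher [3.65 to 29.7], the largest ratio and the least certain. The protein of OS10G0149100, 151 residues long, matches that of OS10G0149200 at 99% similarity in the deposited annotation, so the division of reads between this pair is uncertain.

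**Figure D1:**
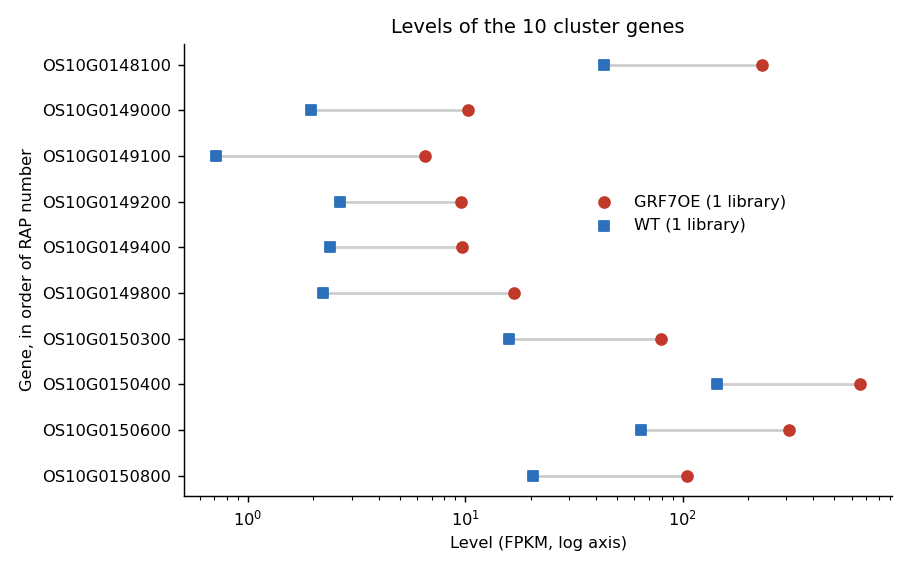
Level of each of the 10 cluster genes in FPKM on a log axis, with GRF7OE as red circles and WT as blue squares (1 library each) and genes in order of their RAP number from top to bottom. Every red point lies to the right of its blue point, and the genes from OS10G0149000 to OS10G0149800 sit far below the rest in both libraries.

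Taken as a single pool, the 10 genes summed to 1434 FPKM in GRF7OE and 298 FPKM in WT, from 18841 and 4087 reads. The pool was 4.81-fold larger [4.65 to 4.97] in GRF7OE, and its share of all FPKM was 0.166% in GRF7OE and 0.0368% in WT. Summed as reads, which does not depend on how reads were divided among the members, the pool was 4.65-fold larger [4.50 to 4.81] after scaling for library size. For 7 of the 10 genes the interval held the ratio of the pool. OS10G0148100 and OS10G0149800 lay above it and OS10G0150400 below it, and none of the 3 intervals ended farther than 0.0383 from that ratio. The pool contains each of the 10 genes, and the scarce ones have wide intervals. The genes were also picked as higher together, so nothing is read from the count of 7.

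The make-up of the pool was much alike in both libraries for its most abundant genes. The genes were picked as higher together, so nothing is read from this likeness. OS10G0150400 made up 45.8% of the summed FPKM in GRF7OE and 48.3% in WT, OS10G0150600 21.5% in GRF7OE and 21.6% in WT, and OS10G0148100 16.1% in GRF7OE and 14.6% in WT. Small shares moved more in proportion, in both directions. OS10G0149100 held 0.457% in GRF7OE and 0.239% in WT, and OS10G0149200 held 0.668% in GRF7OE and 0.888% in WT. The ranks of 6 genes were identical, including the 5 highest and the lowest, and places were exchanged only among the 4 scarce genes OS10G0149000, OS10G0149200, OS10G0149400 and OS10G0149800. Levels covered a 100.4-fold range in GRF7OE and a 202-fold range in WT.

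**Figure D2:**
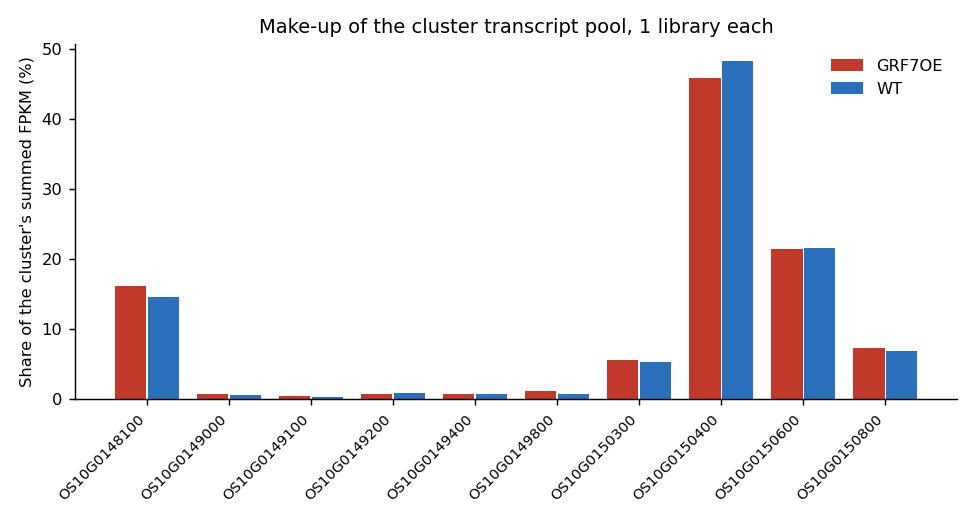
Share of each gene in the summed FPKM of the cluster, in percent, with GRF7OE in red at the left and WT in blue at the right of each pair (1 library each). OS10G0150400 holds 45.8% in GRF7OE and 48.3% in WT, and the red and blue bars of the other genes differ little.

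Counts of genes past a set size use log2((GRF7OE FPKM + 1) / (WT FPKM + 1)), a scale that understates the ratio of low genes, for genes that averaged 1 FPKM or more over both libraries. All 10 cluster genes passed that filter, OS10G0149100 through its GRF7OE value, since it had 0.712 FPKM in WT. All 10 were at least 2-fold higher on this scale, where 3.24% of the 23397 genes past the filter were. Log2 ratios ran from 1.53 for OS10G0149200 to 2.47 for OS10G0149800, with a median of 2.21, beside a median of -0.01 over the 23397 genes. At 4-fold or more there were 7 of the 10, and 0.402% of all genes. Since the rule for the 10 used this contrast, nothing is read from these counts.

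**Figure D3:**
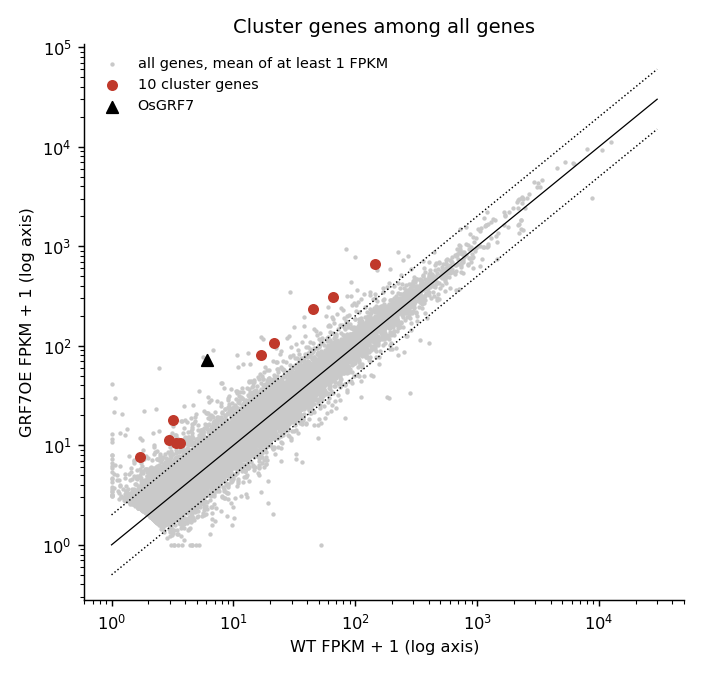
FPKM + 1 of each gene past the filter, WT on the x axis and GRF7OE on the y axis, both log axes. The solid line marks equal levels and the dotted lines 2-fold, and all 10 cluster genes (red) lie above the upper dotted line, as does OsGRF7 (black triangle).

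The authors' deposited table calls 9 of the 10 genes significant, against 1.28% of its 25818 tested genes called on the higher side. The p-values in it compare these 2 libraries, not the conditions. Since the rule for the 10 used the same contrast, nothing is read from the number called or from the shares beside it. In the authors' deposited table the FDR of the called genes runs from 4.3e-12 for OS10G0148100 to 0.0400 for OS10G0149200. The gene not called in the authors' deposited table is OS10G0149400, with an FDR of 0.101 on 62 and 16 reads. At an FDR of at most 0.01 the authors' deposited table holds 6 of the 10, against 0.732% of the tested genes on the higher side.

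The interval from OS10G0148100 to OS10G0150800 holds 17 genes of the table, 7 of them outside the listed 10, and the difference did not cover it evenly. The listed genes were picked for being higher, so nothing is read from their contrast with the genes left out. Of those 7, the annotation puts 2 in the same family, OS10G0150700 and OS10G0148700. OS10G0150700 was at 246 FPKM in GRF7OE and 58.9 FPKM in WT, from 3632 and 896 reads, 4.18-fold higher [3.88 to 4.50], a level that only 2 of the listed genes exceed in each library. OS10G0148700, whose best Swiss-Prot match is a leucine-rich repeat extensin of Arabidopsis, was at 2.63 FPKM in GRF7OE and 0.234 FPKM in WT, 11.2-fold higher [3.52 to 57.4] on 32 and 3 reads. It passed the filter of 1 FPKM only through its GRF7OE value. The authors' deposited table calls both OS10G0150700 and OS10G0148700. The list of 10 thus does not hold the whole of this family in the interval.

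The 5 remaining genes of the interval have no such family description. OS10G0148400, described as a peptide transporter of the NRT1/PTR family, was at 19.2 FPKM in GRF7OE and 19.7 FPKM in WT, a ratio of 0.973 [0.836 to 1.13]. OS10G0148800, an F-box protein gene, was at 7.57 FPKM in GRF7OE and 9.25 FPKM in WT, a ratio of 0.818 [0.699 to 0.957]. OS10G0150200, described only as an expressed protein, was at 8.82 FPKM in GRF7OE and 11.4 FPKM in WT, a ratio of 0.774 [0.580 to 1.03]. These 3 genes lie among the cluster genes and had log2 ratios between -0.34 and -0.04. OS10G0150000, of 117 residues and with no description, had 14 reads in GRF7OE and 0 in WT. Set against a floor of 3 reads in the WT library that is 4.71-fold higher, a value without an allowance for counting error. The authors' deposited table does not call this gene, with an FDR of 0.168. OS10G0149700 had 0 reads in both libraries.

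On either side of the interval the levels of GRF7OE and WT were closer. The ends of the interval were set by genes picked for being higher, so nothing is read from this contrast. Of the 5 nearest genes with any signal on each side, 6 passed the filter of 1 FPKM, with log2 ratios (pseudocount of 1) from -0.47 for OS10G0151800 to 0.61 for OS10G0147566, none 2-fold apart on that scale. As a plain ratio OS10G0147400 was 2.01-fold higher [1.22 to 3.36], at 1.76 FPKM in GRF7OE and 0.876 FPKM in WT. The nearest gene below, OS10G0148000, had 1 read in each library, and OS10G0151233, the nearest above with any signal, had 2 reads in GRF7OE and 0 in WT. Elsewhere on chromosome 10, 39 of 1189 genes past the filter were at least 2-fold higher, which is 3.28%, and 16 were at least 2-fold lower.

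**Figure D4:**
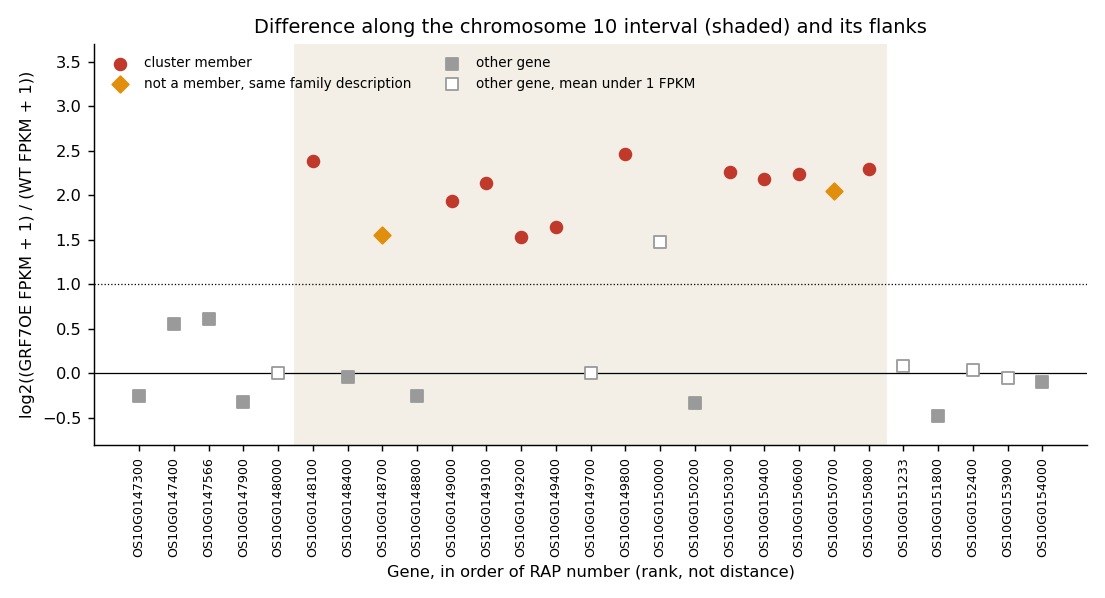
Log2 ratio of GRF7OE over WT, with a pseudocount of 1, for the 17 genes of the interval (shaded) and 5 genes with any signal on each side, in order of RAP number. Red circles are the 10 cluster genes, orange diamonds the other 2 genes of the same family, grey squares all others, open symbols have a mean under 1 FPKM, and the dotted line marks 2-fold. The filled grey squares inside the shading lie between -0.34 and -0.04, among red and orange points at 1.53 or more.

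With genes taken in order of RAP number and those under the filter skipped, the cluster gave 2 unbroken runs of 5 genes at least 2-fold higher. One ran from OS10G0149000 to OS10G0149800 and the other from OS10G0150300 to OS10G0150800, the second including OS10G0150700. Genome-wide there were 13 runs of 3 or more, and the longest, of 6 genes, lay on chromosome 6 between OS06G0121650 and OS06G0124300. The cluster genes were picked as neighbours that are higher together, so their runs follow from the rule and nothing is read from them.

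The deposited annotation bears on what the 10 genes share. A description as proline-rich is given for OS10G0148100 alone, through its match to PRP4 at 44% similarity. The STRING description is of the pollen Ole e I allergen and extensin family for 9 of the 10, and none is given for OS10G0149800. For OS10G0149100 that description belongs to the neighbouring OS10G0149200, its best match. A Swiss-Prot match is given for 4 genes, and 3 of these, OS10G0150400, OS10G0150600 and OS10G0150800, match a bacterial TonB protein, known for a proline-rich stretch, at 52% or 54% similarity. The annotation thus names these genes as extensin family proteins more often than as proline-rich proteins.

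Of the 10 genes, 8 belong to the orthologous group NOG271559. The table holds 9 genes of that group, all inside the interval, the ninth being OS10G0150700. The predicted proteins are short, between 151 and 271 residues. All 10 carry the Gene Ontology term for membrane-bounded vesicles of the cytoplasm as their single term. So do OS10G0148700, OS10G0150000 and OS10G0150700 of the same interval. Of all listed genes, 2.83% carry it as their single term and 12.5% carry it at all. None has a COG, KOG or KEGG orthology entry.

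By the log2 ratio with a pseudocount of 1, this family elsewhere in the genome held genes at least 2-fold higher and genes within 2-fold. The table describes 32 genes as pollen Ole e I allergen and extensin family proteins, a grouping made after the values were seen, and 21 of them lie outside the interval. Of these 21, 11 passed the filter. By that ratio 2 were at least 2-fold higher and none was 2-fold lower, with a median log2 ratio of 0.32. Over all genes past the filter 3.24% were higher and 1.25% lower. The 2 higher ones are neighbours on chromosome 3. OS03G0245300 was at 17.8 FPKM in GRF7OE and 3.52 FPKM in WT, 5.05-fold higher [3.59 to 7.25], and OS03G0245200 was at 49.2 FPKM in GRF7OE and 16.2 FPKM in WT, 3.03-fold higher [2.56 to 3.60]. The other 9 had log2 ratios from -0.94 to 0.89, and among them the 4 on chromosome 10 from -0.35 to 0.59. As plain ratios, OS03G0342100 was 2.61-fold lower [1.35 to 5.37] and OS02G0535300 was 2.31-fold higher [0.887 to 6.70]. Of the 10 under the filter, 4 were at 0 in both libraries.

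**Figure D5:**
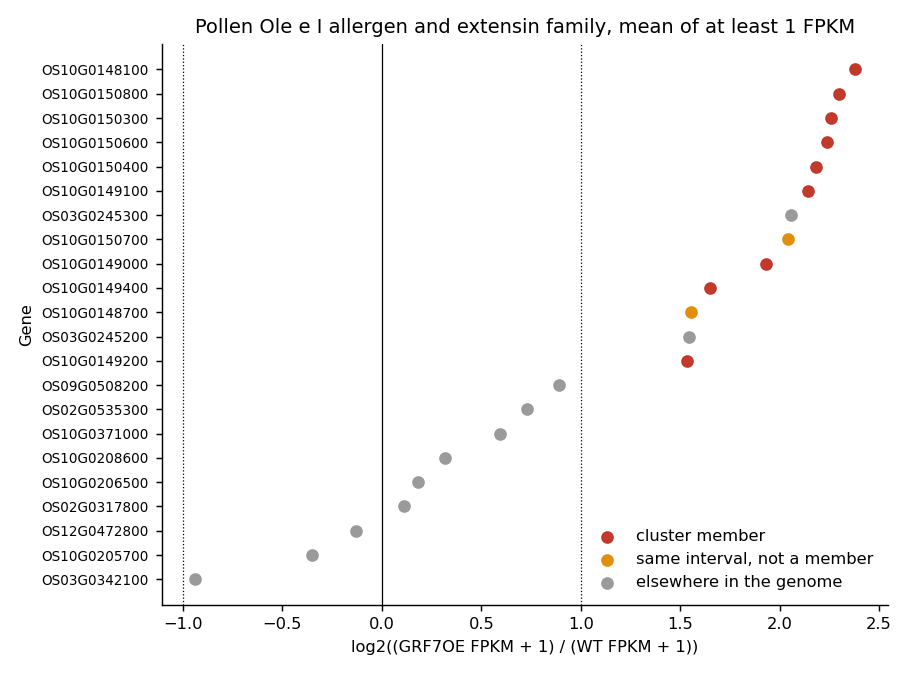
Log2 ratio of GRF7OE over WT, with a pseudocount of 1, of the 22 genes described as pollen Ole e I allergen and extensin family proteins and past the filter, ordered by that ratio. Red marks cluster genes, orange the other 2 genes of the interval and grey genes elsewhere, and dotted lines mark 2-fold. The 2 grey points among the red and orange ones are the chromosome 3 neighbours, and the other 9 grey points lie between -0.94 and 0.89.

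A wider list of wall protein genes was taken from description words (proline-rich, hydroxyproline-rich, extensin and related terms), without the 10 cluster genes. It held 182 genes, of which 110 passed the filter. By the same log2 ratio, 7 were at least 2-fold higher, 4 at least 2-fold lower and 99 within 2-fold, beside 3.24% higher and 1.25% lower over all genes. The 7 include OS10G0148700, which passed the filter only through its GRF7OE value, with 0.234 FPKM in WT. The median was 0.08. Outside the interval the counts were 5 higher and 4 lower of 108, with a median of 0.07.

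By absolute log2 ratio the list was led by OS03G0103100, OS03G0245300, OS10G0150700 and OS04G0644400. OS03G0103100, which best matches a cortical cell-delineating protein known from maize roots, was at 6.30 FPKM in GRF7OE and 31.6 FPKM in WT, a log2 ratio of -2.16. Its neighbour OS03G0103200, with the same best match, was at 453 FPKM in GRF7OE and 345 FPKM in WT, a log2 ratio of 0.39. OS04G0644400, which best matches a proline-rich protein, was at 318 FPKM in GRF7OE and 91.6 FPKM in WT, 3.47-fold higher [3.27 to 3.67]. OS04G0401000, the most abundant of the list and described as a basic proline-rich protein, was at 497 FPKM in GRF7OE and 411 FPKM in WT, 1.21-fold higher [1.17 to 1.25].

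Organ markers were measured beside the cluster. Leaf markers were abundant, and the 4 of them (small subunits of Rubisco and chlorophyll a-b binding proteins) summed to 21078 FPKM in GRF7OE and 16904 FPKM in WT. The 6 root markers summed to 14.7 FPKM in GRF7OE and 20.1 FPKM in WT, with RCc3 at 5.19 FPKM in GRF7OE and 10.4 FPKM in WT. The others differed less in FPKM and in both directions. Lsi1 had 6.83 FPKM in GRF7OE and 7.22 FPKM in WT, and Lsi2 0.625 FPKM in GRF7OE and 0.773 FPKM in WT. IRT1 had 1.66 FPKM in GRF7OE and 1.51 FPKM in WT, and NAR2.1 0.254 FPKM in GRF7OE and 0.221 FPKM in WT. NRT2.1 had 0.186 FPKM in GRF7OE and 0 FPKM in WT. The 10 floral MADS-box genes summed to 41.6 FPKM in GRF7OE and 42.1 FPKM in WT, most of it from MADS16, and MADS7 and MADS8 were at 0 in both. That sum hides differences in both directions among scarce genes under the filter. MADS1 had 24 reads in GRF7OE and 3 in WT. MADS6 had 1 read in GRF7OE and 7 in WT, and MADS13 had 2 in GRF7OE and 14 in WT. OSH1, a gene of the shoot apex, was at 4.74 FPKM in GRF7OE and 5.90 FPKM in WT. RCc3 was 2.01-fold lower [1.41 to 2.89] as a plain ratio, while by the log2 ratio with 1 added to each FPKM none of the markers past the filter was 2-fold apart. The part of organ make-up in the difference of the cluster was not tested.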

How the data were processed

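RNA-seq of 2 libraries, GRF7OE and WT, was used as 1 deposited table. The submitters' processing notes name Bowtie and Cuffdiff, with versions, build and strand setting not given in the sources used here. The authors deposited FPKM, a normalised read count per gene (a signal), p-values with FDR, and log2 ratios, which were not used for direction. A header for the direction of change names an RNAi line that the labels do not list; that column was not used. A gene is called in their table at an FDR up to 0.05 with a log2 ratio of 1 or more in either direction.

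Dividing the normalised counts by the worth of 1 read (0.963 in GRF7OE, 0.954 in WT) gave whole reads within 0.05 for 99.3% and 99.2% of values above 0 and below 10000, and for all 20 values of the cluster. Intervals are exact (Clopper-Pearson) at 95% from those reads, rescaled to the FPKM ratio. The floor was 3 reads per library.

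Named genes were the 10 listed, OsGRF7, all others of the interval, and from the wider list the 4 with the largest absolute log2 ratio and the 2 with the highest mean. OS03G0245200, the longest run and the family grouping were chosen after values were seen. Of the organ markers, 2 were dropped because the table names their IDs otherwise. The members and lists were chosen with earlier results of these data known. Gene order is by RAP number, and no coordinates or sequences are given. The counting and intervals were tested on simulated reads with counting error only, which is what the intervals assume. That cannot check the spread between plants or reads shared between similar genes. Alternatives covered pseudocount, filter, scaling, count columns, fold and FDR. The tools were Matplotlib 3.10.9, pandas 2.3.3, SciPy 1.17.1, NumPy 2.4.6 and Python 3.11.15.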

Additional observations from a re-analysis of the deposited data

How the results depend on the processing

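All 69 log2 ratios of the single cluster genes under alternatives were above 1, from 1.47 to 3.03. Of these, 68 stayed within counting error of the reported value. The exception was OS10G0150400, at 2.09 with both libraries scaled to the same FPKM sum. A filter cannot alter a gene's own ratio, so the values under other filters repeat the reported ones and do not check them. Since this difference selected the genes, nothing is read from their staying higher. All 10 genes stayed at least 2-fold higher under the other pseudocounts, scalings, the normalised counts and with no filter, as did the 9 that passed a mean of at least 5 FPKM. The median log2 ratio of the cluster was 2.33 with a pseudocount of 0.1, 2.27 with 0.5, 2.12 at the same sum and 2.27 from the normalised counts. The log2 ratio of the pool was 2.17 at the same sum, against 2.26 as deposited. With a pseudocount of 0.1 the wider list had 11 genes higher and 5 lower of 110. All genes past the filter had 1147 higher and 512 lower of 23397. Among the other genes of the interval and its flanks, 1 was higher at a mean of at least 5 FPKM and 1 at 4-fold. These stand in place of 2 of the 11 past the filter of 1 FPKM. With that stricter filter the wider list had 4 higher and 1 lower, and all genes 481 and 165. Fewer genes pass it, and without their number these counts cannot be read as shares. From the normalised counts the wider list had 10 higher and 6 lower, and all genes 1109 higher and 505 lower. At 1.5-fold the wider list had 19 higher and 8 lower of 110, and all genes 2148 and 1121 of 23397. At 4-fold the wider list had 2 higher and 1 lower of 110, and all genes 94 and 25 of 23397. At an FDR of at most 0.01 the authors' deposited table calls 6 of the 10 cluster genes. No paired analysis was possible because each group has 1 library. Depth limits the genes with under 50 reads in WT, whose intervals are wide.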
